A study of Mus musculus with 31 samples.

Results

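The T cell receptor complex and the proteins that carry its first signals were followed through 9 genes, found by symbol among the 38406 gene rows of every count table. They were Cd3d, Cd3e, Cd3g and Cd247, which encode the signalling chains of the complex, Lck and Zap70, its kinases, Lat, its adaptor, and Cd2 and Cd5, surface proteins that raise and dampen the signal. All 9 had counts in all 31 libraries and passed the filter on low counts. The libraries hold bulk RNA of CD45.2+ cells sorted from AT3-OVA tumours. AT3-OVA cells are from a mouse mammary tumour of the triple negative kind, carry ovalbumin and were grown in the mammary fat pad of wild type female C57BL/6 mice. The 6 groups were 3x4Gy at day 5 (6 libraries, 3 fractions of 4 Gy) with its mock 3x0Gy (4 libraries), 1x20Gy at day 5 (6 libraries, 1 fraction of 20 Gy) with its mock 1x0Gy (4 libraries), and 1x20Gy at day 13 (7 libraries) with its mock 1x0Gy (4 libraries). Days were counted from the end of radiotherapy, which was confined to the tumour, and mock animals received the anaesthesia without radiation. The ages of the mice are not given in the labels. All tumours carried the same transplanted line, with its model antigen ovalbumin, so the groups stand for 1 tumour model.

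In a T cell, the antigen receptor chains cannot signal by themselves. The CD3 chains and the zeta chain made from Cd247 carry the tyrosine motifs that the kinase LCK phosphorylates, ZAP70 binds to the phosphorylated motifs, and ZAP70 then phosphorylates the scaffold LAT, on which downstream enzymes assemble. CD2 is an adhesion and costimulatory receptor, and CD5 dampens the signal and is known to follow its strength in developing T cells. NK cells lack the CD3 chains on their surface but use CD247, LCK, ZAP70, LAT and CD2, so in a mixed leukocyte sample these genes are not read from T cells alone.

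Gene counts ran from 2641229 to 7541144 per library, and member counts from 29, for Cd3e in 1 of the 3x0Gy libraries, to 1086, for Cd3d in 1 of the 3x4Gy libraries. The sorted cells had Ptprc, which encodes CD45, at 378 to 1946 CPM in every library, where CPM are counts scaled to a common library size with TMM factors. Reads outside genes made up 5.69% to 32.1% of a library, with the lowest share in 3x0Gy library 2. The share was on average higher in irradiated groups, at 24.2% in 3x4Gy against 16.1% in 3x0Gy libraries, 23.6% in 1x20Gy against 16.9% in 1x0Gy libraries at day 5, and 25.8% in 1x20Gy against 20.5% in 1x0Gy libraries at day 13. In bulk RNA, a change in the number of T cells and a change in RNA per T cell cannot be told apart, and this holds for every level below. The labels do not say that each library is a separate animal, so the tests measure the spread between libraries. Day 5 and day 13 libraries carry different sample codes, so levels were compared within a day.

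On GRCm38, Cd3g (chr9:44969572-44980431, minus strand), Cd3d (chr9:44981786-44987339, plus strand) and Cd3e (chr9:44998740-45009627, minus strand) lay together within 40056 bases of chromosome 9. The annotated starts of Cd3g and Cd3d were 1355 bases apart and pointed away from each other. The other members stood alone: Zap70 (chr1:36761798-36782818, plus), Cd247 (chr1:165788681-165877277, plus), Cd2 (chr3:101275899-101287939, minus), Lck (chr4:129548344-129573641, minus), Lat (chr7:126363824-126369570, minus) and Cd5 (chr19:10717116-10739002, minus). All 9 were annotated as protein coding.

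Promoter sequence was available for 8 of the 9 members, in 11 windows of 200 bases before the RefSeq start (GRCm38.p6). The 5 windows below show the CD3 cluster and Lat and Cd5, single genes called as higher at day 5 after 1x20Gy. They cover chr9:44980432-44980631 (Cd3g, minus strand), chr9:44981586-44981785 (Cd3d, plus), chr9:45009612-45009811 (Cd3e, minus), chr7:126369569-126369768 (Lat, minus) and chr19:10738975-10739174 (Cd5, minus), each written from 5′ to 3′ and ending beside its start. Capitals mark AGGAAG or its reverse complement CTTCCT, a core bound by ETS family factors, which are known regulators of T cell genes.
Cd3g: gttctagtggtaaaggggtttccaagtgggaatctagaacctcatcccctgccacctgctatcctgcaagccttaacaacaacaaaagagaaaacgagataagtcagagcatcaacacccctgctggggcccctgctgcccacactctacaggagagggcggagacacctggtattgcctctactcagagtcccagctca
Cd3d: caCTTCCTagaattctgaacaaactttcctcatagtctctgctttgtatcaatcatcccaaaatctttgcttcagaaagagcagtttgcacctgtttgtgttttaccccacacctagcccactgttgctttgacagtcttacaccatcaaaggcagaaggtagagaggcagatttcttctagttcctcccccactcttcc
Cd3e: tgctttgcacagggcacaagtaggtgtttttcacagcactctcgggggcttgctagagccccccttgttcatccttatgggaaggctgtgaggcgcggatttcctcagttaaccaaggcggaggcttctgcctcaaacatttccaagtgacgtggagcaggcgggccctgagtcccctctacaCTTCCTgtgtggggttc
Lat: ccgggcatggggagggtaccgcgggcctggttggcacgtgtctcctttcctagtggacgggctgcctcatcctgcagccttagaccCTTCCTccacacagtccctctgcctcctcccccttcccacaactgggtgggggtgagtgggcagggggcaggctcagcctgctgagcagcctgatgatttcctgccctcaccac
Cd5: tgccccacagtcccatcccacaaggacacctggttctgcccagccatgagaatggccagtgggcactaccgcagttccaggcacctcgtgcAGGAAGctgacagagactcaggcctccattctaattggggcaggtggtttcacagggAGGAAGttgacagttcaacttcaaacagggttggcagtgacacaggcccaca
The core stood in 9 of the 11 member windows, against 24.7% of all 32851 promoter windows of that length, and 7 of the 8 members had it in at least 1 window. Cd3g was the member without it. The core of RUNX factors, TGTGGT or ACCACA, stood in 2 of the 11 member windows, against 11.2% of all windows, and neither motif overlaps the other in letters. Both motifs were chosen after the sequences had been seen, and a match describes letters, not binding.

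Per kilobase of exon, Cd3d had the highest level of the 9 in all 6 groups. It averaged 66.5 ± 25.6 CPM per kb in 3x4Gy libraries against 54.8 ± 23.8 in 3x0Gy libraries, 69.0 ± 24.9 in 1x20Gy against 38.1 ± 18.4 in 1x0Gy libraries at day 5, and 91.0 ± 31.9 in 1x20Gy against 51.5 ± 16.1 in 1x0Gy libraries at day 13 (SD, n = 6, 4, 6, 4, 7 and 4). Cd2 and Lck came next in every group and Lat after them. In 3x4Gy libraries, Cd2 averaged 56.8 ± 20.7 and Lck 38.9 ± 13.6 CPM per kb, so Cd3d and Cd2 differed by less than their spread. The 5 remaining members lay close together and changed places between groups, from 7.52 to 14.7 CPM per kb in 3x4Gy libraries and from 4.01 to 7.51 in 1x0Gy libraries at day 5. Cd5 was the lowest of the 9 in the 1x0Gy libraries at day 5, at 4.01 ± 1.81 CPM per kb, and ranked sixth in the 1x20Gy libraries of that day, at 12.8 ± 5.27. The CD3 genes were far from equal, since Cd3e and Cd3g averaged 8.03 ± 3.27 and 7.52 ± 2.02 CPM per kb in the 3x4Gy libraries, well below Cd3d.

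**Figure D1:**
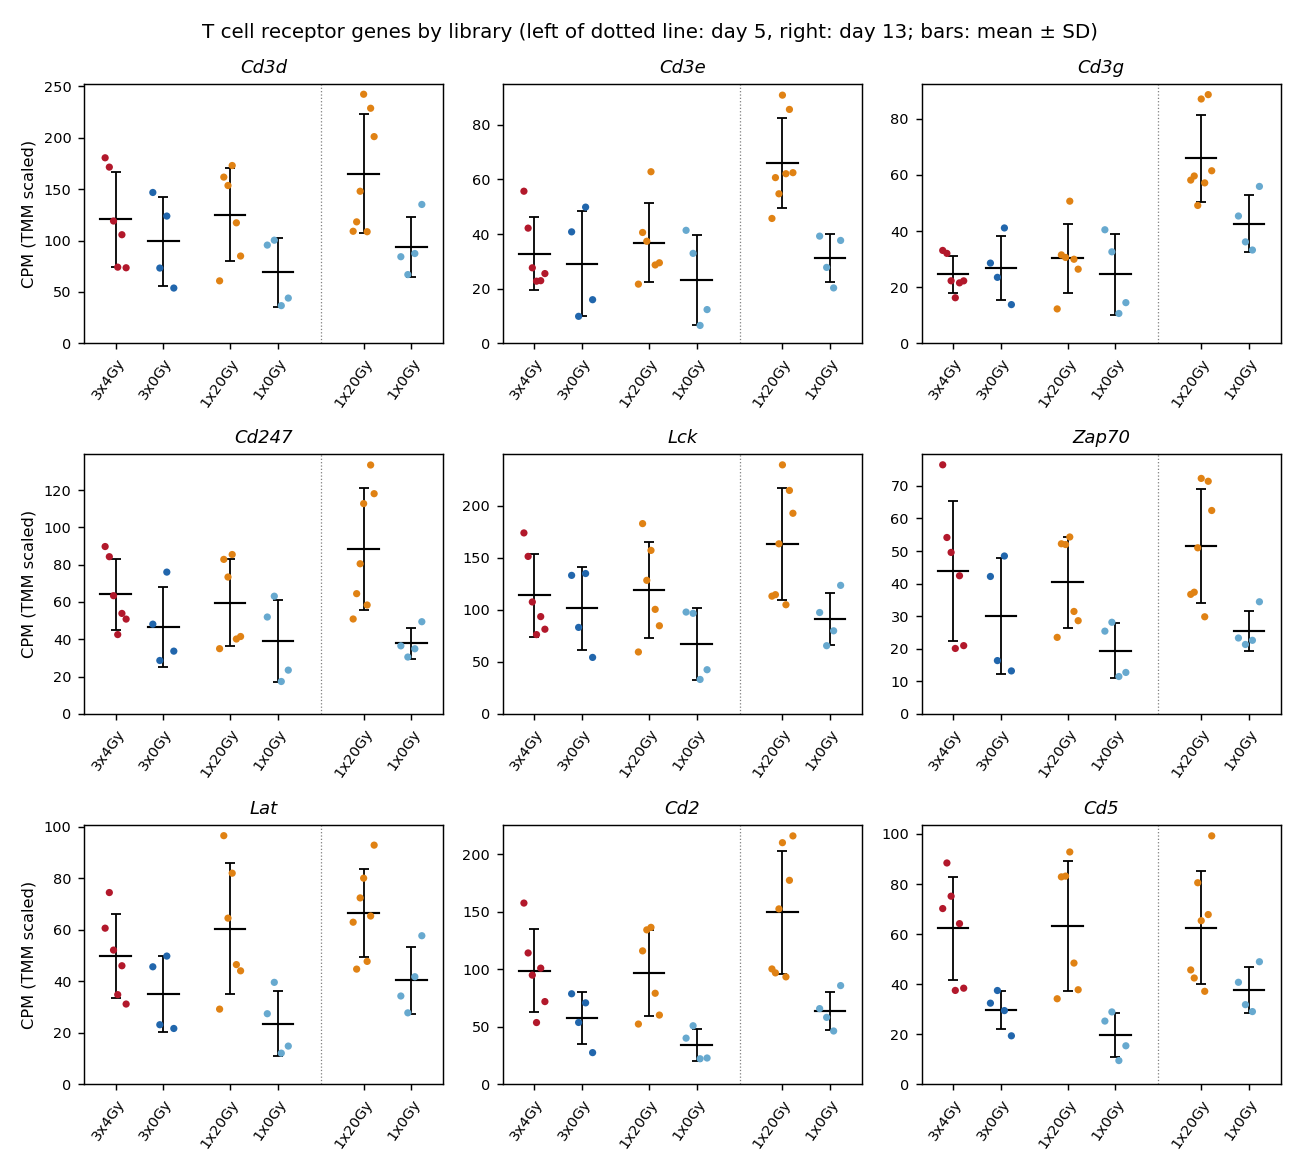
CPM (scaled by TMM, y axis, linear, from 0) of the 9 members in each of 31 libraries (points), by group (x axis, irradiated left of its mock), with mean and SD as black lines. After 1x20Gy at day 5 the Cd2 and Cd5 points lie above all points of the 1x0Gy mock, and at day 13 those of Cd3e, Cd247 and Cd2 do.

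The first comparison asked what 3 fractions of 4 Gy left behind by day 5. Cd5 was higher in 3x4Gy tumours than in 3x0Gy tumours and was the 1 member of 9 called, that is, with a Benjamini-Hochberg adjusted p under 0.05. Of all 12021 genes tested there, 12.3% were called, 5.2% as higher. The 6 3x4Gy libraries had Cd5 between 37.5 and 88.4 CPM with a median of 67.2, against 32.4, 37.5, 29.5 and 19.4 CPM in the 4 3x0Gy libraries. The ranges touched without overlapping, the lowest 3x4Gy library lying just above the highest mock, as was so for 3.91% of genes. The log2 fold change was 1.09 with a standard error (SE) of 0.34 and an edgeR adjusted p of 0.0377. The call did not survive leaving out 3x4Gy library 1, 2, 3 or 5 or 3x0Gy library 1, 3 or 4, with log2 fold changes of 0.92 to 1.22 over all left-out libraries, nor upper quartile scaling (1.03, edgeR adjusted p = 0.0517) or a fit with the share of reads outside genes (1.36, edgeR adjusted p = 0.0563).

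The other 8 members did not pass the test after 3x4Gy. Cd2 had 53.7 to 158 CPM with a median of 98.0 in 3x4Gy libraries, against 78.8, 53.8, 70.9 and 27.6 CPM in 3x0Gy libraries, a log2 fold change of 0.79 (SE 0.34, edgeR adjusted p = 0.131). The CD3 chains stood near their mocks. Cd3d averaged 121 ± 46.4 CPM in 3x4Gy and 99.4 ± 43.2 CPM in 3x0Gy libraries, with a log2 fold change of 0.29 and a 95% interval of -0.45 to 1.02. Cd3g was the member with a negative value, 24.6 ± 6.6 CPM in 3x4Gy and 26.7 ± 11.4 CPM in 3x0Gy libraries (log2 fold change -0.12, interval -0.87 to 0.63). These intervals hold changes in both directions, so the libraries do not show equal levels. Cd3e, Lck, Cd247, Lat and Zap70 ran from 0.17 to 0.55 on the log2 scale. The median of the 9 was 0.45, beside -0.004 for all genes.

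A single fraction of 20 Gy was followed at day 5 by higher Lat, Cd2 and Cd5, the adaptor and the surface proteins on either side of the signal. These 3 of 9 members were called, against 8.55% of 12021 genes in either direction and 3.67% as higher. Cd5 lay between 34.2 and 92.8 CPM with a median of 65.6 in the 6 1x20Gy libraries, against 25.3, 28.9, 9.50 and 15.4 CPM in the 4 1x0Gy libraries. No 1x20Gy library was as low as any mock, as for 5.44% of genes, and the log2 fold change was 1.67 (SE 0.34, edgeR adjusted p = 0.00333). Cd2 lay between 52.4 and 137 CPM with a median of 97.7 in 1x20Gy libraries, against 40.2, 51.0, 22.3 and 22.9 CPM in 1x0Gy libraries. Its ranges were also apart, with a log2 fold change of 1.5 (SE 0.35, edgeR adjusted p = 0.00887). Lat lay between 29.2 and 96.6 CPM with a median of 55.5 in 1x20Gy libraries, against 27.4, 39.6, 12.1 and 14.9 CPM in 1x0Gy libraries. For Lat, 1 irradiated library lay below the highest mock. The log2 fold change was 1.36 (SE 0.36, edgeR adjusted p = 0.0204), and the call was lost without 1x0Gy library 3 (1.15, adjusted p = 0.092) or 4 (1.2, adjusted p = 0.0946) and with the share of reads outside genes in the fit (1.37, adjusted p = 0.0527), whereas Cd2 and Cd5 stayed called with each of the 10 libraries left out.

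The receptor's own chains and kinases gave positive values that did not pass the test at day 5 after 1x20Gy. Cd3d averaged 125 ± 45.3 CPM in 1x20Gy and 69.2 ± 33.4 CPM in 1x0Gy libraries (log2 fold change 0.86, SE 0.36, edgeR adjusted p = 0.15). Lck averaged 119 ± 46.2 CPM in 1x20Gy and 67.5 ± 34.6 CPM in 1x0Gy libraries (0.82, SE 0.35, edgeR adjusted p = 0.163). Zap70 averaged 40.3 ± 13.9 CPM in 1x20Gy and 19.4 ± 8.56 CPM in 1x0Gy libraries (1.05, SE 0.41, edgeR adjusted p = 0.118). The mock libraries fell into a high and a low pair for these genes. Cd3d, for example, had 95.6 and 100.3 CPM in 1x0Gy libraries 1 and 2 but 36.7 and 44.0 CPM in libraries 3 and 4. Cd247 and Cd3e had log2 fold changes of 0.61 and 0.65, and Cd3g the smallest, 0.29 with an interval of -0.44 to 1.03. The median of the 9 was 0.86, beside 0.02 for all genes.

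At day 13 after 1x20Gy, chains of the receptor complex and both its kinases were higher. Cd3e, Cd247, Lck, Zap70 and Cd2 were higher than in the 1x0Gy mock, 5 of 9 members, against 8.05% of the 11071 genes tested in either direction and 4.22% as higher. Cd3e lay between 45.7 and 90.8 CPM with a median of 62.1 in the 7 1x20Gy libraries, against 39.2, 27.8, 20.3 and 37.6 CPM in the 4 1x0Gy libraries. Every irradiated library was above every mock, as for 3.31% of genes, and the log2 fold change was 1.09 (SE 0.21, edgeR adjusted p = 0.00601). Cd247 lay between 50.9 and 133 CPM with a median of 80.5 in 1x20Gy libraries, against 36.5, 30.5, 34.9 and 49.4 CPM in 1x0Gy libraries, again without overlap (1.23, SE 0.26, edgeR adjusted p = 0.0091). Cd2 lay between 93.5 and 216 CPM with a median of 153 in 1x20Gy libraries, against 65.9, 58.2, 46.4 and 85.9 CPM in 1x0Gy libraries, the third member whose ranges were apart (1.23, SE 0.26, edgeR adjusted p = 0.00916).

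The kinases followed with ranges that overlapped at day 13. Zap70 lay between 29.8 and 72.3 CPM with a median of 51.0 in 1x20Gy libraries, against 23.3, 21.3, 22.6 and 34.4 CPM in 1x0Gy libraries. Only its highest mock reached into the irradiated range, and the log2 fold change was 1.02 (SE 0.25, edgeR adjusted p = 0.0173). Lck lay between 105 and 239 CPM with a median of 164 in 1x20Gy libraries, against 97.4, 65.5, 79.9 and 124 CPM in 1x0Gy libraries (0.84, SE 0.24, edgeR adjusted p = 0.0427). The 4 members that were not called lay close to the threshold, with log2 fold changes of 0.82 for Cd3d (edgeR adjusted p = 0.0578), 0.63 for Cd3g (0.0517), 0.72 for Lat (0.0547) and 0.74 for Cd5 (0.0792). The median of the 9 was 0.84, beside 0.01 for all genes. Without 1x0Gy library 1, 2 or 3, Lck and Zap70 lost their calls, which left 3 members called. Lck lost its call in 7 of the 11 fits with a library left out (edgeR adjusted p up to 0.146), and Zap70 in 3. By contrast, 8 members were called without 1x0Gy library 4 and 9 without 1x20Gy library 5. Cd3e, Cd247 and Cd2 stayed called without each of the 11 libraries, and 9 members were called by DESeq2 or without the filter on low counts and 8 with the share of reads outside genes in the fit, but 4 by upper quartile scaling, which lost Lck (edgeR adjusted p = 0.0552).

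**Figure D2:**
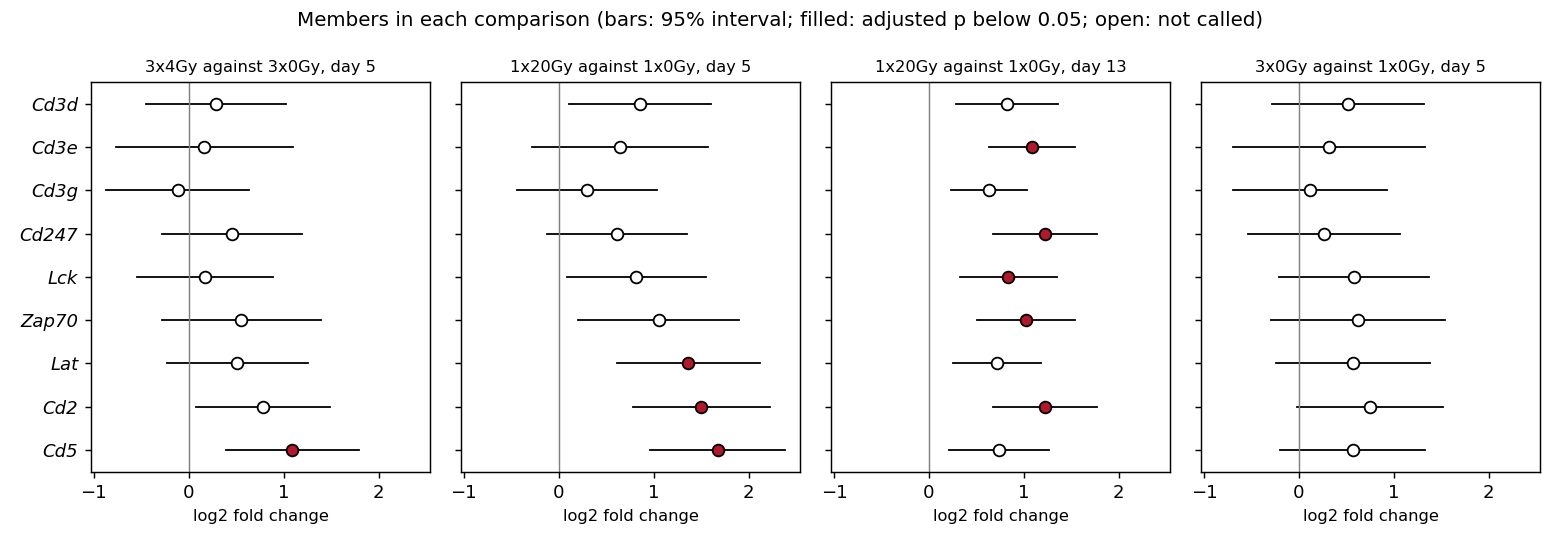
Log2 fold change (x axis) of each member (y axis) in the 3 comparisons of irradiated with mock tumours and in that of the day 5 mocks, with 95% intervals as bars and filled points for an adjusted p below 0.05. Filled points are Cd5 after 3x4Gy, Lat, Cd2 and Cd5 at day 5 after 1x20Gy, and Cd3e, Cd247, Lck, Zap70 and Cd2 at day 13; the mock comparison has none.

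The regimens were then set against each other at day 5. No member's response was called as different between 3x4Gy and 1x20Gy by edgeR's test of the difference, 0 of 9, with 0 at an unadjusted p below 0.05 and 0 called by DESeq2 or limma voom, and 0% of 12021 genes were called (714 genes, 5.94%, had an unadjusted p below 0.05; DESeq2 called 1 gene and limma voom 0). The 9 estimated differences, 3x4Gy response minus 1x20Gy response, ran from -0.85 for Lat (95% interval -1.88 to 0.18) to -0.16 for Cd247 (-1.19 to 0.87). Cd5 averaged 62.3 ± 20.5 CPM in 3x4Gy libraries and 63.2 ± 25.9 CPM in 1x20Gy libraries, with 29.7 ± 7.63 CPM in 3x0Gy and 19.8 ± 8.92 CPM in 1x0Gy libraries. Cd3d averaged 121 ± 46.4 CPM in 3x4Gy and 125 ± 45.3 CPM in 1x20Gy libraries, with 99.4 ± 43.2 CPM in 3x0Gy and 69.2 ± 33.4 CPM in 1x0Gy libraries.

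Between the day 5 mocks, 3x0Gy against 1x0Gy, all 9 estimates were positive, from 0.12 for Cd3g to 0.75 for Cd2 (95% interval -0.02 to 1.52). None of the 9 was called by edgeR, DESeq2 or limma voom, 0 had an unadjusted p below 0.05, and 0% of 12021 genes were (667 genes, 5.55%, had an unadjusted p below 0.05; DESeq2 called 2 genes and limma voom 0). The estimates of both mocks enter the difference of the responses above. Between the days, the 1x20Gy responses of the 9 members also gave no call by edgeR, DESeq2 or limma voom, with 1 at an unadjusted p below 0.05 (12.4% of all genes), where 0.423% of 12061 genes had an edgeR call. Cd5 had the estimate farthest from 0, a response lower at day 13 by 0.91 on the log2 scale (interval -1.81 to -0.005, unadjusted p = 0.0489, edgeR adjusted p = 0.399), and Cd247 the highest, 0.63 (interval -0.33 to 1.60). Cd3d, Lck and Zap70 had nearly equal responses on both days, with estimates of -0.01, 0.04 and -0.003, whose intervals reached from about -0.96 to 0.98.

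The members were also read against each other within a library, as counts per summed count of Cd3d, Cd3e and Cd3g. This ratio was chosen after the values had been seen and was not tested. At day 5 after 1x20Gy, Cd5 gave 0.268 to 0.375 counts per CD3 count with a median of 0.339, against 0.142 to 0.217 in 1x0Gy libraries, a ratio of means of 1.84. Cd2 gave 0.428 to 0.607 in 1x20Gy libraries against 0.227 to 0.413 in 1x0Gy libraries, a ratio of 1.58. Lat gave 0.264 to 0.413 in 1x20Gy libraries against 0.155 to 0.239 in 1x0Gy libraries, a ratio of 1.51. All 3 had ranges that did not overlap, as 0.258% of 12018 genes did in that direction and 4.24% in the other. The CD3 genes had positive log2 fold changes themselves, so dividing by them lowers the ratios of genes in general. These 3 members were also the ones called in the same libraries, so the ratios are not separate support. Between the mocks, Lck per CD3 count also had ranges apart, at 0.616 to 0.780 in 3x0Gy against 0.552 to 0.614 in 1x0Gy libraries, a ratio of 1.14. So did 0.0499% of genes in that direction and 0.183% in the other. Lck, Cd247 and Zap70 overlapped with their mock, with ratios of 1.05, 0.94 and 1.21.

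After 3x4Gy, Cd5 and Cd2 had the highest such ratios, with overlap. Cd5 gave 0.261 to 0.445 counts per CD3 count in 3x4Gy libraries against 0.137 to 0.351 in 3x0Gy libraries, a ratio of means of 1.64. The highest mock value was that of 3x0Gy library 2, which also had the lowest share of reads outside genes and the fewest Cd3e counts, 29. Cd2 gave 0.465 to 0.673 in 3x4Gy libraries against 0.330 to 0.505 in 3x0Gy libraries, a ratio of 1.46. At day 13, Cd5 and Lat stood level with their mock per CD3 count, with ratios of 0.95 and 0.96, and Cd2 and Cd247 somewhat above it, with 1.30 and 1.28. Among the CD3 genes, Cd3e per Cd3d count had ratios of means near 1 at day 5, 0.99 after 3x4Gy and 0.99 after 1x20Gy, and 1.2 at day 13, with overlapping ranges. Cd3g per Cd3d count averaged 0.214 ± 0.0456 in 3x4Gy and 0.276 ± 0.0636 in 3x0Gy libraries, and 0.243 ± 0.0514 in 1x20Gy and 0.342 ± 0.0570 in 1x0Gy libraries at day 5, with overlapping ranges in both.

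**Figure D3:**
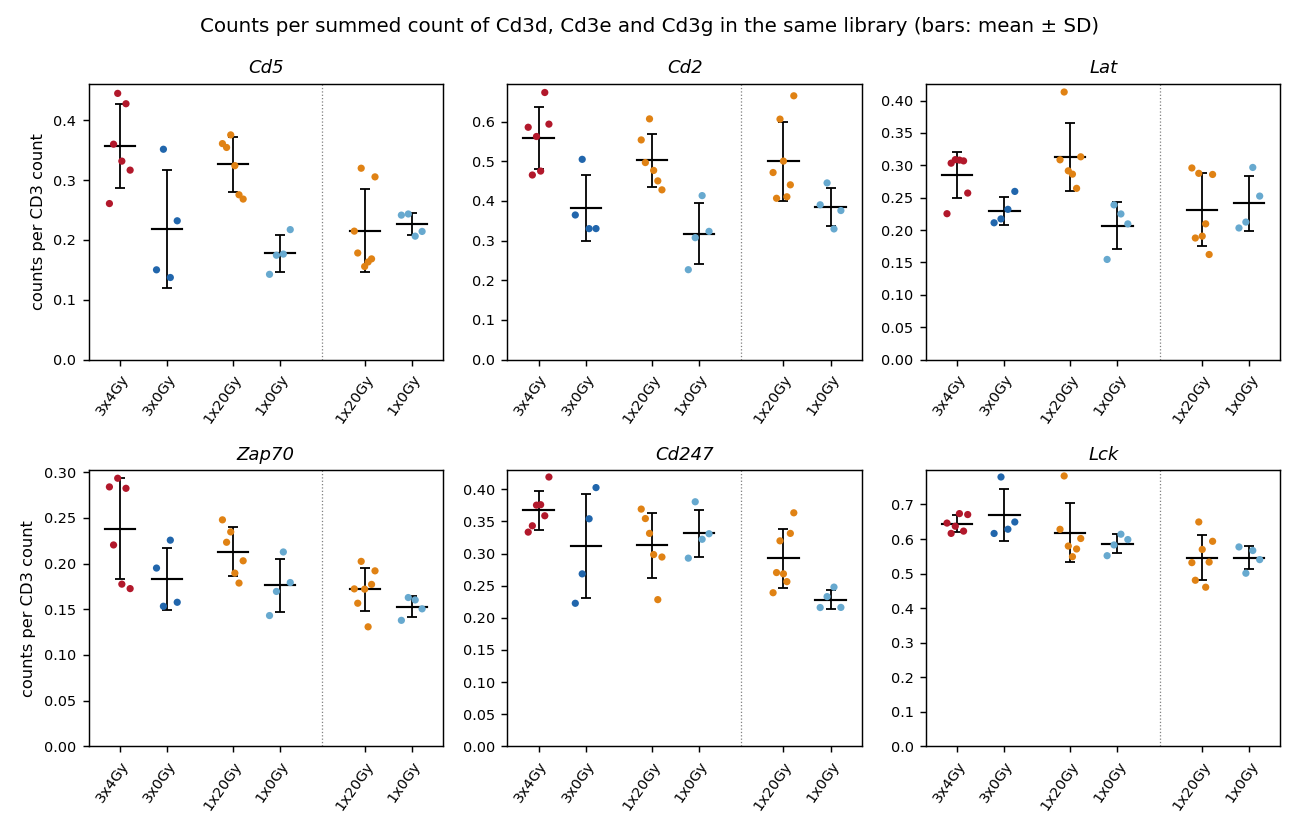
Counts of 6 members per summed count of the CD3 genes Cd3d, Cd3e and Cd3g (y axis, linear, from 0) in each library (points), by group (x axis, irradiated left of its mock), with mean and SD. Left of the dotted line is day 5 and right of it day 13. In the day 5 1x20Gy group the Cd5, Cd2 and Lat points lie above all points of the 1x0Gy mock, and those of Lck, Cd247 and Zap70 do not.

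Across the 31 libraries, with each group's mean removed, the 9 members moved together. Pearson's r of log2 CPM ran from 0.59 for Cd3e with Cd5 to 0.98 for Cd3d with Lck over the 36 pairs. These are descriptions: the points share libraries, depth and the composition of the sort. The 10 other genes with the pattern most like the members' mean, of 9594 ranked with a mean of at least 5 CPM, were Thy1 (r = 0.95), Cd27 (0.94), Ikzf3 (0.94), Ptprcap (0.94), Fam65b (0.93), Sh2d2a (0.92), Tbx21 (0.92), Il2rb (0.92), Cd28 (0.92) and Ppp1r16b (0.92). Tbx21 encodes a transcription factor of type 1 T cells and NK cells, and Il2rb a receptor chain for IL-2 and IL-15 on both. Among T cell genes of the lists, Cd8a had r of 0.89, Cd8b1 0.85, the regulatory T cell marker Foxp3 0.78 and Cd4 0.53. In the NK list, whose genes may not be limited to NK cells, Eomes, Klrb1c, Klre1 and Ncr1 had 0.85, 0.83, 0.78 and 0.48. Cd68, found in macrophages, had -0.79.

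Among these 10 genes none was called by edgeR after 3x4Gy, Cd28 alone at day 5 after 1x20Gy, and 7 were higher at day 13. Over all genes, 5.2%, 3.67% and 4.22% were called as higher in these comparisons. Tbx21 averaged 369 ± 141 CPM in 1x20Gy and 129.9 ± 36.9 CPM in 1x0Gy libraries at day 13 (log2 fold change 1.51, SE 0.28, edgeR adjusted p = 0.004). Fam65b averaged 58.4 ± 13.7 CPM in 1x20Gy and 22.3 ± 7.02 CPM in 1x0Gy libraries (1.39, SE 0.22, edgeR adjusted p = 0.00181). Thy1, a surface protein of T cells and the gene most alike, had a log2 fold change of 0.57 at day 13 that was not called (edgeR adjusted p = 0.113).

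**Figure D4:**
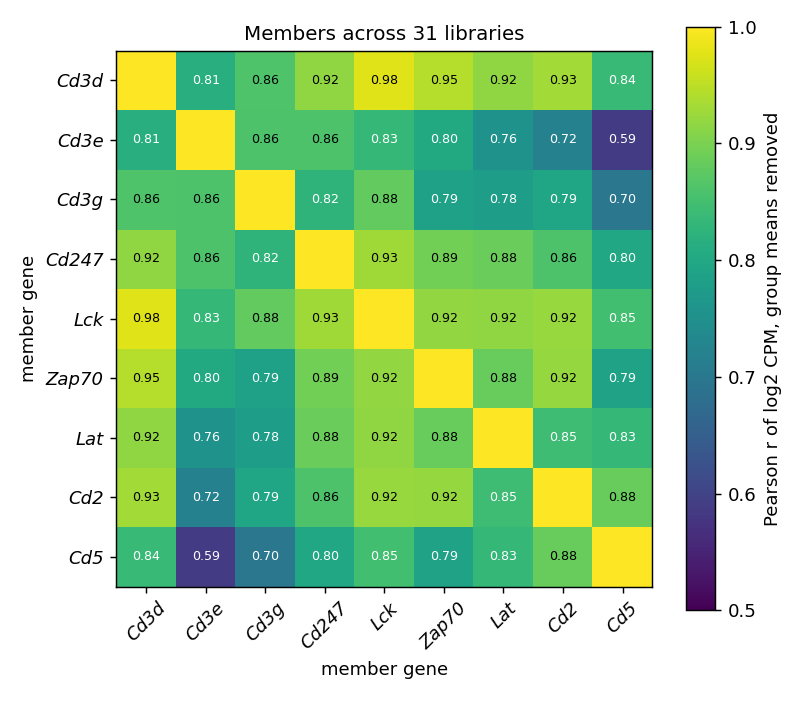
Pearson's r (colour and number) between the log2 CPM of each pair of members (both axes) over 31 libraries, after each group's mean was removed. The colour scale starts at 0.5. The highest value, 0.98, is that of Cd3d with Lck and the lowest, 0.59, that of Cd3e with Cd5.

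The rest of the pathway was taken from 6 lists with 74 genes, of which 68 were tested at day 5 and 69 at day 13. After 3x4Gy, 7 were higher and 1 lower. After 1x20Gy, 10 were higher and 1 lower at day 5, and 23 were higher at day 13. Over all genes, 12.3%, 8.55% and 8.05% were called in these comparisons, and the 8 of 68 after 3x4Gy lie near the 12.3%. The medians were 0.32 after 3x4Gy, 0.39 at day 5 and 0.56 at day 13 after 1x20Gy, beside -0.004, 0.02 and 0.01 for all genes.

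Of the receptor's antigen-binding chains, Trbc1 was higher at day 13, with 19.7 ± 1.88 CPM in 1x20Gy and 13.4 ± 2.46 CPM in 1x0Gy libraries (log2 fold change 0.56, SE 0.16, edgeR adjusted p = 0.0375), while Trbc2 was not called (0.41, edgeR adjusted p = 0.124). These beta chain constant genes are close copies. Reads without a unique alignment were tallied apart from genes, so reads that fit both copies may be missing from both counts. The alpha chain gene Trac had at most 1.25 CPM in any library and was not tested. The coreceptors Cd4 and Cd8a were not called in any of the 3 comparisons. Cd4 had log2 fold changes of -0.06 after 3x4Gy, 0.56 at day 5 and -0.23 at day 13 after 1x20Gy, and Cd8a of -0.51, 0.19 and 0.59. Cd8b1, the partner chain of CD8, was higher at day 13, with 140 ± 55.02 CPM in 1x20Gy and 64.6 ± 16.5 CPM in 1x0Gy libraries (1.12, SE 0.26, edgeR adjusted p = 0.0142).

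The costimulatory receptors Cd28 and Icos were higher on both days after 1x20Gy. Cd28 had log2 fold changes of 1.42 (SE 0.41, edgeR adjusted p = 0.0317) at day 5 and 1.13 (SE 0.20, edgeR adjusted p = 0.00354) at day 13, and 1.11 after 3x4Gy, which was not called (edgeR adjusted p = 0.0749). Icos had 1.53 at day 5 and 0.67 at day 13. Slamf1 was called at day 5 (1.45) and Cd27 at day 13 (1.28). None of the 11 genes of that list was called by edgeR after 3x4Gy, where 2 had an unadjusted p below 0.05. Of all genes, 12.3% were called after 3x4Gy, 5.2% as higher, and 28.3% had an edgeR unadjusted p below 0.05. After 1x20Gy, 3.67% were called as higher at day 5 and 4.22% at day 13. No gene of the list, and 0% of 12021 genes, was called by edgeR as different between the responses to the 3x4Gy and 1x20Gy regimens.

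For the signalling enzymes and adaptors beyond the members, the difference between the 1x20Gy responses of the days was called by edgeR in 0 of 10 kinases and phosphatases, 0 of 16 adaptors and 0 of 14 downstream genes (2, 1 and 3 at an unadjusted p below 0.05), with median differences of 0.06, 0.09 and 0.10 on the log2 scale. Of all 12061 genes, edgeR called 0.423% for that difference, and 12.4% had an unadjusted p below 0.05, so these counts do not set the lists apart. In the list of kinases and phosphatases, 4 of 10 were called at day 13, among them the kinases Txk and Fyn and the phosphatase gene Ptpn22, which rose by 1.17, 0.63 and 0.82 on the log2 scale. At day 5 none of that list was called by edgeR after 1x20Gy, where 3 had an unadjusted p below 0.05 and Fyn had 0.57, and after 3x4Gy the phosphatase gene Ptprc (0.89) and the kinase gene Syk (0.59) were, which myeloid and B cells use too. At day 5 after 1x20Gy, 22.8% of all genes had an edgeR unadjusted p below 0.05. Of 16 adaptors, Lax1, Sh2d2a, Skap1 and Grap2 were called at day 13 (1.24, 1.22, 1.05 and 0.53), Sit1 at day 5 after 1x20Gy (1.26), and Nck2 as lower after 3x4Gy (-0.95). Lcp2, the partner of LAT, was not called in any of the 3, with 0.33 after 3x4Gy, 0.27 at day 5 and 0.33 at day 13 after 1x20Gy. Downstream, 3 of 14 genes were called at day 13, Prkcq, Plcg1 and Nfatc1 (1.03, 0.71 and 0.67). Orai1 (0.86) was called at day 5 after 1x20Gy, and Malt1 (1.07) and Vav3 (0.78) after 3x4Gy. Over all genes, 12.3% were called after 3x4Gy, and 8.55% at day 5 and 8.05% at day 13 after 1x20Gy. The counts of adaptors and downstream genes called after 3x4Gy and at day 5 after 1x20Gy lie near or below these shares.

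Among 15 inhibitors of the signal, 3 were called as higher after 3x4Gy, 5 at day 5 and 7 at day 13 after 1x20Gy, where 5.2%, 3.67% and 4.22% of all genes were called as higher. Ctla4, an inhibitory receptor, averaged 132 ± 67.7 CPM in 3x4Gy and 45.1 ± 6.35 CPM in 3x0Gy libraries (log2 fold change 1.56, SE 0.42, edgeR adjusted p = 0.018). It averaged 201 ± 101 CPM in 1x20Gy and 33.7 ± 18.5 CPM in 1x0Gy libraries at day 5 (2.57, SE 0.44, edgeR adjusted p = 0.000815), and 241 ± 61.3 CPM in 1x20Gy and 116 ± 30.3 CPM in 1x0Gy libraries at day 13 (1.06, SE 0.21, edgeR adjusted p = 0.00614). Ctla4 also stands in the list of regulatory T cell markers. Sla and Btla were the others called after 3x4Gy (0.57 and 0.80). At day 5 after 1x20Gy, Dgka (1.11) and Dok2 (0.94) were among those called, and Lag3 was the 1 gene called as lower, at 1.07 ± 0.56 CPM in 1x20Gy and 5.48 ± 1.51 CPM in 1x0Gy libraries (-2.32). At day 13, Cblb (1.04), Pdcd1 (0.95) and Dgka (0.90) were called beside Ctla4.

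**Figure D5:**
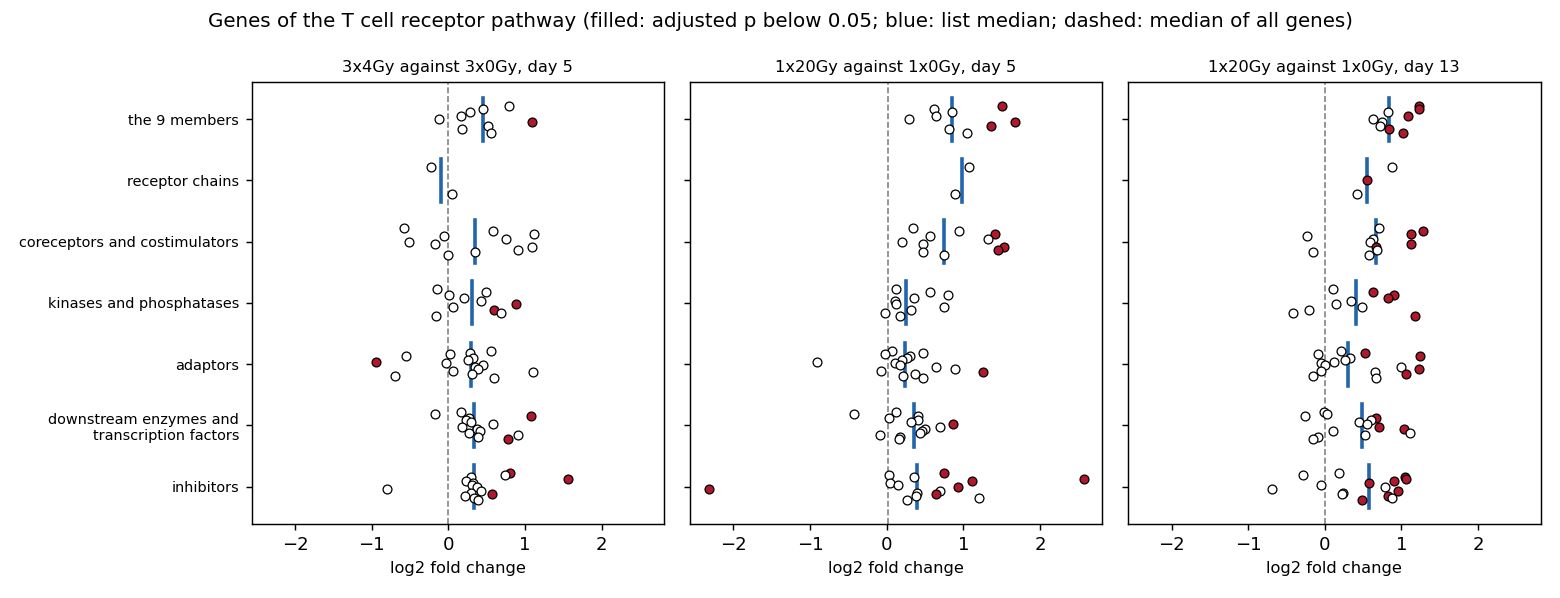
Log2 fold change (x axis) of each tested gene (points) in the 9 members and the 6 pathway lists (y axis) for the 3 comparisons of irradiated with mock tumours, with filled points for an adjusted p below 0.05, blue lines for list medians and a dashed line for the median of all genes. The day 13 panel has 23 filled points in the 6 lists and none left of 0 among them.

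Markers of other cells moved beside the members, and their part in the results was not tested. The 7 NK markers may not be limited to NK cells. Of these genes, 6 were tested and 5 were higher at day 13, where 4.22% of all genes were called as higher. Among the 5 were Klra8 (log2 fold change 2.32), Ncr1 (2.00) and Eomes (1.43), while Klrb1c was not called (1.05, edgeR adjusted p = 0.126). The summed level of the 7 NK markers lay between 187 and 351 CPM in 1x20Gy and between 95.2 and 172 CPM in 1x0Gy libraries at day 13. At day 5 the NK sums overlapped, at 93.4 to 156 CPM in 1x20Gy and 46.2 to 123 CPM in 1x0Gy libraries with 0 of 6 called by edgeR (2 at an unadjusted p below 0.05), and at 107 to 189 CPM in 3x4Gy and 73.9 to 161 CPM in 3x0Gy libraries with Klrk1 higher (0.74) and Klrb1c lower (-1.16). Of all genes at day 5, 8.55% were called after 1x20Gy and 12.3% after 3x4Gy. After 1x20Gy, 22.8% had an edgeR unadjusted p below 0.05 at day 5. After 3x4Gy Ncr1 was not called, at -0.34, and at day 5 after 1x20Gy Ncr1 had 0.39 and Klrb1c -0.22. Khdc1a was at 0 in all 3x0Gy libraries and all 1x0Gy libraries of day 13.

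Regulatory T cell markers were higher in 4 of 5 after 3x4Gy, where 5.2% of all genes were called as higher. They were higher in 4 of 5 at day 5 after 1x20Gy (3.67% of all genes), and in 2 of 5 at day 13 (4.22% of all genes). Foxp3, their defining transcription factor, averaged 22.2 ± 11.1 CPM in 3x4Gy and 6.59 ± 3.34 CPM in 3x0Gy libraries (log2 fold change 1.81, SE 0.45, edgeR adjusted p = 0.0106), and 20.7 ± 9.56 CPM in 1x20Gy and 3.74 ± 1.98 CPM in 1x0Gy libraries at day 5 (2.44, SE 0.46, edgeR adjusted p = 0.00173). At day 13 it was not called (0.71, edgeR adjusted p = 0.166). Ikzf2, which encodes the transcription factor Helios, was higher after 3x4Gy (1.35) and at day 13 (0.63), and Tnfrsf18, the receptor GITR, at day 5 after 1x20Gy (1.46). Summed levels of these markers lay at 310 to 658 CPM in 3x4Gy against 172 to 299 CPM in 3x0Gy libraries, at 340 to 913 CPM in 1x20Gy against 109 to 262 CPM in 1x0Gy libraries at day 5, and at 514 to 887 CPM in 1x20Gy against 338 to 517 CPM in 1x0Gy libraries at day 13.

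Gamma delta T cell genes summed to at most 10.2 CPM and B cell genes to at most 8.02 CPM in any library, with Cd79a below 1 CPM on average in every group and Pax5 at 0 in all libraries of 3 groups. The alpha chain gene Trac also had at most 1.25 CPM, although Cd3d had at least 36.7 CPM in every library. Low counts of receptor chain genes therefore do not show that gamma delta T cells were scarce. Fibroblast and matrix genes, of which 5 of 6 were tested, were lower in 5 of 5 after 3x4Gy, with sums of 15.4 to 45.9 CPM in 3x4Gy and 67.5 to 178 CPM in 3x0Gy libraries. After 1x20Gy, 1 was lower at day 5 and 3 at day 13. Over all genes, 7.09% were called as lower after 3x4Gy, and 4.88% at day 5 and 3.83% at day 13 after 1x20Gy. Of 5 epithelial genes, 2 were lower after 3x4Gy and 3 at day 5 after 1x20Gy, and 1 at day 13, where 3 of the 5 had positive values and the median was 0.25. Krt14 was the one lower in all 3 comparisons (-2.51, -3.03 and -1.53), and the day 13 sums averaged 961 CPM in 1x20Gy and 740.0 CPM in 1x0Gy libraries. Macrophage genes summed to between 2338 and 13126 CPM, and 1 of 5, Csf1r, was lower at day 13 (-0.66). Neutrophil genes summed to 12 to 177 CPM in 3x4Gy against 12.8 to 91.6 CPM in 3x0Gy libraries, 33.0 to 519 CPM in 1x20Gy against 21.9 to 79.7 CPM in 1x0Gy libraries at day 5, and 88.6 to 222 CPM in 1x20Gy against 37.8 to 80.8 CPM in 1x0Gy libraries at day 13. Cxcr2 was higher at day 5 after 1x20Gy (2.53), and S100a9 (1.68) and S100a8 (1.30) at day 13. Mast cell and platelet genes had Pf4 lower after 3x4Gy (-2.05) and Cpa3 higher at day 5 after 1x20Gy (2.13). Of 4 proliferation genes, Mki67 was higher after 3x4Gy (0.99) and Ccnb1 at day 5 after 1x20Gy (0.61), and Cdk1 was lower at day 13 (-0.64). Ptprc, on all leukocytes, was higher after 3x4Gy and not called after 1x20Gy (0.12 at day 5 and 0.15 at day 13).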

How the data were processed

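The samples were bulk RNA-seq libraries of sorted CD45.2+ cells. The authors deposited raw counts of reads per gene, 1 file per library, with 5 summary lines that were left out of the totals. Per the submitters' processing notes, bcl2fastq 2.20.0.422, cutadapt 1.5, HISAT2 2.0.4 and HTSeq 0.9.1 were used with GRCm38/mm10; the annotation and strand setting of the counting are not given in the sources used here. Groups came from the titles.

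Counts were tested with edgeR 4.0.16 (R 4.3.3) by the quasi-likelihood test, two-sided, with TMM scaling, filterByExpr (minimum count 10, total 15) and Benjamini-Hochberg adjustment over all genes tested, a gene being called below 0.05. Day 5 used 1 fit of 20 libraries, day 13 its own fit of 11, and the day difference a fit of 31. CPM were scaled within each day, and log2 CPM had a prior count of 2. Standard errors were the log2 fold change over the root of F, and intervals were at 95%.

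Alternatives were DESeq2 1.42.0, limma 3.58.1 (voom), DESeq2 size factor and upper quartile scaling, no filter on low counts, only the groups compared, the share of reads outside genes as a covariate, a replicate block, each library left out, and, added after seeing the data, RP23-81C12.3 left out. That gene took 0.148% to 31.5% of a library's gene counts. At day 13 its share was 19.2% to 31.5% in 1x20Gy and 2.1% to 15.0% in 1x0Gy libraries, without overlap. Without it, 1427 genes and 1 member were called after 3x4Gy. After 1x20Gy, 1007 genes and 3 members were called at day 5, and 883 genes and 5 members at day 13. The 69 pairs of libraries within groups differed by more than counting error, with chi-square per degree of freedom of 3.67 to 69.3.

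Positions and exon lengths came from GENCODE M21 (GRCm38), and promoters from RefSeq (GRCm38.p6). The members and lists were chosen with earlier results of these data known. Named list genes were up to 4 called genes per pathway list and 3 per marker list and comparison with the highest absolute log2 fold change, beside some always named (Cd4, Cd8a, Cd28, Fyn, Lcp2, Foxp3, Ncr1, Klrb1c, Cd79a, Ptprc); some always named genes are not reported here. The T cell marker list, which shares genes with the members, had 0 of 7 tested genes called in both day 5 comparisons (edgeR; 0 after 3x4Gy and 3 after 1x20Gy at an unadjusted p below 0.05) and 1, Cd3e, at day 13. Of all genes, 12.3%, 8.55% and 8.05% were called in these comparisons. At day 5, 28.3% after 3x4Gy and 22.8% after 1x20Gy had an edgeR unadjusted p below 0.05. The list medians were -0.006 after 3x4Gy, and 0.65 at day 5 and 0.59 at day 13 after 1x20Gy, with 3, 7 and 6 of 7 positive.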

Additional observations from a re-analysis of the deposited data

Results flagged for a closer look

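In the 4 1x0Gy libraries of day 13, Zap70 stood at 34.4 CPM in library 4, against 21.3 to 23.3 CPM in the other 3, and its gap to the nearest of them took up 0.849 of the group's range. It was the 1 case with a sample far from the rest among 54 sets, each of 1 member in 1 group. Chance flags about 1 set in 20, so 1 flag among 54 is no more than chance gives. The sets share libraries.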

How the results depend on the processing

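The lowest member count was 29, for Cd3e in 3x0Gy library 2. That library had 3000419 gene counts, against 2652298 in 3x0Gy library 1, which had 117 Cd3e counts. Median counts were 148 for Cd3g, 148 for Zap70 and 152 for Cd3e. Members called at day 13 numbered 9 by DESeq2, 9 without the filter, 8 with the share of reads outside genes as a covariate, and 3 to 9 with each library left out, against 5. After 3x4Gy, 0 were called with that covariate and 0 by upper quartile scaling, and 0 to 1 with each library left out, against 1; at day 5 after 1x20Gy, 2 to 3 against 3. Genes called after 3x4Gy numbered 702 with only the groups compared in the fit and 668 with the covariate, against 1477, and 1132 to 1815 with a library left out. For 1x20Gy, leave-one-out gave 556 to 1024 genes at day 5 (556 and 582 without 1x0Gy libraries 4 and 3) and 306 to 1264 at day 13 (306 and 588 without 1x0Gy libraries 3 and 2). Upper quartile scaling gave 450 higher and 1110 lower genes after 3x4Gy, against 625 and 852, and 317 higher and 745 lower at day 5 after 1x20Gy, against 441 and 587. The difference between days called 193 genes by DESeq2, 3 by voom, 85 without the filter, 5 by upper quartile scaling, 16 with the replicate block and 1 to 110 with a library left out, against 51. The difference between regimens called 1 gene by DESeq2, 1 without the filter and 0 to 1 with a library left out, and that between mocks 2, 1 and 0 to 1. Reversed signs, all of uncalled values, were those of Cd3e after 3x4Gy with the covariate (-0.16) and, for the day difference, of Cd3d (0.0086) and Zap70 (0.014) without the filter, Zap70 by upper quartile scaling (0.0015), and Lck by voom (-0.049) and with the replicate block (-0.030). With a library left out, the ranges crossing 0 were, after 3x4Gy, Cd3e -0.10 to 0.59, Cd3g -0.35 to 0.20 and Lck -0.040 to 0.35; for the mocks, Cd247 -0.093 to 0.59, Cd3e -0.10 to 0.75 and Cd3g -0.20 to 0.47; for the regimens, Cd247 -0.49 to 0.20; and for the days, Cd3d -0.24 to 0.23, Lck -0.19 to 0.27 and Zap70 -0.23 to 0.18. The causes were not tested. The deviations of same-numbered libraries had r of -0.034 to 0.40 after 3x4Gy, and -0.26 to 0.21 at day 5 and -0.030 to 0.33 at day 13 after 1x20Gy. Between the mocks r ran from -0.43 to 0.24. Differently numbered libraries spanned -0.42 to 0.44 over the comparisons, so these values do not settle whether equal numbers go together. The replicate block called 1223 genes after 3x4Gy, 876 at day 5 and 1064 at day 13 after 1x20Gy, with 1, 4 and 8 members, against 1, 3 and 5 without it.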
